A study of Mus musculus with 18 samples.

Results

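Ptbp1, Ptbp2, Rbfox1, Rbfox2, Rbfox3, Nova1, Nova2, Elavl2, Elavl3 and Elavl4 encode RNA-binding proteins that shape splicing and mRNA stability in neurons. They were picked out by gene name, and all 10 were found among the 58570 gene loci of the expression table. Their RNA was measured by total RNA sequencing of whole spinal cords from the SMNΔ7 line, a mouse model of spinal muscular atrophy (SMA), the motor neuron disease that follows loss of the SMN protein. Homozygotes (called SMA here) and heterozygotes (called control here) were taken at postnatal days 2, 6 and 10 (P2, P6, P10), with 3 libraries in each of the 6 groups. As this line is usually bred, homozygotes lack mouse Smn1, heterozygotes keep 1 working copy, and both carry human SMN transgenes, so the control cords are not wild type; the labels give only the line and the zygosity. The labels do not give sex, litter or whether a library pooled animals.

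These proteins bind short RNA motifs near exons or in the ends of transcripts. PTBP1 represses neuronal exons in non-neuronal cells and progenitors, and its paralog PTBP2 takes over as neurons form and is lowered again as they mature. RBFOX and NOVA proteins promote or block exons by where they bind, many of them in transcripts for synapse and channel proteins, and the neuronal ELAVL proteins (HuB, HuC and HuD) stabilise mRNAs with AU-rich ends and also act on splicing. RBFOX3 is the NeuN antigen, a standard label of mature neurons.

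The deposited tables hold 1 level per gene and group with a lower and an upper bound, made by the authors from the 3 libraries together, so no value per animal and no SD over animals can be given. Levels are FPKM (fragments scaled by transcript length and library size), which allows levels to be compared between genes. Over the members and groups the upper bound lay 39.7% (an Elavl3 value) to 138% (a Ptbp1 value) above the level, and 235 to 3066 estimated fragments stood behind a value. Totals were 6881671 to 7386338 estimated fragments per group. Ratios are given on the log2 scale ± 1 standard error (SE), derived from the upper bounds. Unless limma is named, a ratio was tested with a two-sided z test, its p adjusted over all genes tested (FPKM of at least 1 in a group compared). Calls are those with an adjusted p below 0.05. At an unadjusted p under 0.05 the z test had 0.743%, 0.168% and 0.213% of genes in SMA against control at P2, P6 and P10. In control P10 against P2 it had 3.51%. These shares are below what that threshold gives when nothing differs, so the test was strict. A member not called is not thereby shown to be unchanged.

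The targeted gene went against 1 label. Smn1 was 2.70, 4.46 and 3.54 FPKM in controls at P2, P6 and P10. In the groups labelled SMA it was 0.0210 at P2, was listed at 0 at P6, and was 2.82 at P10. The group labelled SMA at P10 therefore had Smn1 near the control level, and each direction below that uses this group rests on that label. The value there came from 20.2 estimated fragments. Its deposited bounds of 0 and 6.08 also span the value of SMA at P2. Markers of mature oligodendrocytes, the myelin-forming cells, also stood apart: their summed level (8 of 8 genes measured) was 239, 1752 and 7496 FPKM in control at P2, P6 and P10 and 3382, 1957 and 4152 in SMA. In SMA at P2 4 of the 8 were called higher than in control. Directions below that use the group labelled SMA at P2 rest on its label as well. Whether libraries were exchanged between groups was not tested.

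Levels are given first for the PTB pair, whose SMA values at P10 lay on opposite sides of control. The promoter windows of both genes are shown for this reason, from RefSeq on GRCm38.p6, each 5′ to 3′ on the gene's strand and running from 250 bases before to 50 bases after the transcript start. Capitals mark the GC box GGGCGG and the CCAAT box CCAAT, each searched on both strands.
Ptbp1: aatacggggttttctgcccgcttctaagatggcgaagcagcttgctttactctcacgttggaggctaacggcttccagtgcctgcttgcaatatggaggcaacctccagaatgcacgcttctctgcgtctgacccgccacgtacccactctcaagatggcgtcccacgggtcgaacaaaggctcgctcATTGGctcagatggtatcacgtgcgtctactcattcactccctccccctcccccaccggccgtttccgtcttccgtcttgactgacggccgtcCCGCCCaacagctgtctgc
Ptbp2: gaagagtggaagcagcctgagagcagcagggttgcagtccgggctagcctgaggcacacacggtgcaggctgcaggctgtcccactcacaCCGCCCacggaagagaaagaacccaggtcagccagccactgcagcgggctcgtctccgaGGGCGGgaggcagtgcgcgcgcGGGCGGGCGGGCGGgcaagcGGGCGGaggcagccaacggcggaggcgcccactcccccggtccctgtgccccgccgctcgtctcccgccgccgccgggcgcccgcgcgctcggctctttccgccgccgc
The first window is chr10:79854182-79854481 (plus strand) and the second chr3:119783339-119783638 (minus strand). The second lies inside the Ptbp2 gene as annotated by GENCODE, whose 5′ end is at position 119784466. Its RefSeq transcript start thus differs from that 5′ end. The Ptbp1 window held 1 GC box and 1 CCAAT box. The Ptbp2 window held 6 GC boxes, some of them overlapping one another, and no CCAAT box. Among all 32851 windows of this length 35.7% held a GC box and 37.4% a CCAAT box. CG dinucleotides numbered 22 for Ptbp1 and 36 for Ptbp2, against a median of 7 over all windows. These are letter matches, not measured binding sites. Of the 10 members 9 matched the promoter table, with 18 windows in all. Rbfox2 had no match.

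Ptbp1 (ENSMUSG00000006498.16, chr10:79854427-79864771, plus strand, GRCm38) was low and flat in control, at 16.2, 17.2 and 16.0 FPKM at P2, P6 and P10. In SMA it was 16.6, 14.7 and 11.8 FPKM, so the lowest of its 6 values was that of the group labelled SMA at P10. There it was at 73.3% of control, a log2 ratio of -0.45 ± 1.25. That SE is wider than the ratio, and the deposited intervals of all 6 groups overlap. The deposited locus of Ptbp1 also spans the annotated genes Plppr3 and Prtn3, Plppr3 on the opposite strand, and the strand setting of the counting is not given in the sources used here. A further 5 deposited loci overlap the annotated Ptbp1 gene, with values up to 52.6 FPKM, above the level of Ptbp1 itself.

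Ptbp2 (ENSMUSG00000028134.11, chr3:119718742-119784466, minus strand) had the highest level of the 10 in every group. It was 112, 87.4 and 70.9 FPKM in control and 105, 93.3 and 84.2 in SMA at P2, P6 and P10. Control at P10 stood at 63.1% of P2 (log2 ratio -0.67 ± 0.63) and SMA at 80.2% (-0.32 ± 0.67), and neither passed the test. The level of Ptbp2 over that of Ptbp1 was 6.93, 5.09 and 4.42 in control, lower at each later age, and 6.34, 6.36 and 7.17 in SMA. These ratios have SEs of 0.81 to 1.11 on the log2 scale, wider than any difference among them. A further 3 deposited loci overlap the annotated Ptbp2 gene, with values up to 24.8 FPKM.

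The RBFOX genes had 1 abundant, 1 intermediate and 1 low member. Rbfox1 (ENSMUSG00000008658.16, chr16:5885355-7411526, plus strand), whose product regulates exons of channel and synapse transcripts, was 74.1, 55.0 and 43.6 FPKM in control and 66.7, 57.6 and 49.7 in SMA. Rbfox2 (ENSMUSG00000033565.18, chr15:77078990-77307004, minus strand), a family member also found outside neurons, was 46.6, 35.1 and 26.0 in control and 42.2, 37.4 and 30.9 in SMA. Both were lower at each later age in both genotypes. In control the P10 value was 58.8% of that at P2 for Rbfox1 (-0.77 ± 0.50) and 55.9% for Rbfox2 (-0.84 ± 0.46, adjusted p = 1.00, z test). Only 6.44% of the genes tested had a lower ratio than Rbfox2 in that comparison. The deposited Rbfox1 locus starts inside the annotated gene, at position 6809222, so transcripts that begin upstream are covered in part only. A further 227 deposited loci overlap the annotated Rbfox1 gene, with values up to 14.9 FPKM. How fragments were divided among such loci was not tested.

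By its levels alone, Rbfox3 (ENSMUSG00000025576.17, chr11:118489762-118911597, minus strand) did not share that course. Its level was 15.3, 12.7 and 13.8 FPKM in control and 13.1, 12.3 and 12.4 in SMA. All 3 SMA values were below the control value of the same age, by log2 ratios of -0.23 ± 0.63, -0.04 ± 0.61 and -0.16 ± 0.61. With Rbfox1 and Rbfox2 lower at P10, Rbfox3 made up 16.6% of the summed RBFOX level in control at P10 against 11.3% at P2. In SMA its share was 10.7% at P2 and 13.3% at P10. The log2 ratio of Rbfox1 over Rbfox3 was 2.27 ± 0.60 at P2 and 1.66 ± 0.52 at P10 in control. In SMA that ratio was 2.35 ± 0.55 and 2.01 ± 0.59. Within each genotype these values overlap within 1 SE, so no change is shown in the share of Rbfox3. The genes with the most similar course over the 6 groups, by root mean square difference of centred log2(FPKM + 1) among 7394 candidates, were Gpr107 (0.0367), Hoxb8 (0.0426) and Krtcap2 (0.0426), and Elavl3 came sixth (0.0502). For Ptbp1 they were Abtb1 (0.0772), Adam11 (0.0826) and Cad (0.0830).

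Nova1 and Nova2 encode paired splicing regulators first known as antigens in a paraneoplastic movement disorder. Nova1 (ENSMUSG00000021047.7, chr12:46694517-46818929, minus strand) was 57.1, 46.4 and 40.8 FPKM in control and 52.5, 49.3 and 47.4 in SMA, highest at P2 in both. Nova2 (ENSMUSG00000030411.16, chr7:18925888-18965319, plus strand) had the lowest level of the 10 in every group, at 9.56, 7.85 and 7.29 in control and 9.19, 8.25 and 8.36 in SMA. Nova1 held 84.8% to 85.7% of the NOVA level in all 6 groups. By the levels alone, the balance within the pair was thus the steadiest of the families. The log2 ratio of Nova1 over Nova2 had SEs of 0.64 to 0.86, so this ranking is not tested. The control level at P10 was 71.6% of P2 for Nova1 (-0.48 ± 0.46) and 76.3% for Nova2 (-0.39 ± 0.99).

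Of the neuronal ELAVL genes, Elavl2 and Elavl4 were lower with age in control, and in SMA their FPKM was nearly level from P2 to P10. Their estimated fragments in SMA were lower at each later age. These were 2103, 1775 and 1631 for Elavl2 and 867, 823 and 755 for Elavl4. Elavl2 (ENSMUSG00000008489.18, chr4:91250763-91400785, minus strand, joined in the deposited table with the microRNA gene Mir6402) was 49.6, 42.6 and 31.9 FPKM in control and 43.2, 40.2 and 40.9 in SMA. Elavl4 (ENSMUSG00000028546.17, chr4:110203722-110351909, minus strand), which encodes HuD, a protein that binds Gap43 mRNA, was 32.6, 24.8 and 20.2 in control and 26.4, 26.7 and 26.5 in SMA. Elavl3 (ENSMUSG00000003410.8, chr9:22015005-22052023, minus strand), the gene of HuC, varied least of these, at 38.6, 34.6 and 33.6 in control and 34.6, 32.2 and 32.9 in SMA. The deposited Elavl3 locus also overlaps a predicted protein-coding gene on the same strand, whose fragments cannot be told apart here. At P10 the SMA value was 131% of control for Elavl4 (0.39 ± 0.42), 128% for Elavl2 (0.36 ± 0.65) and 97.8% for Elavl3 (-0.03 ± 0.42). None of these ratios passed the test, and the intervals of the groups overlap for each gene.

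**Figure D1:**
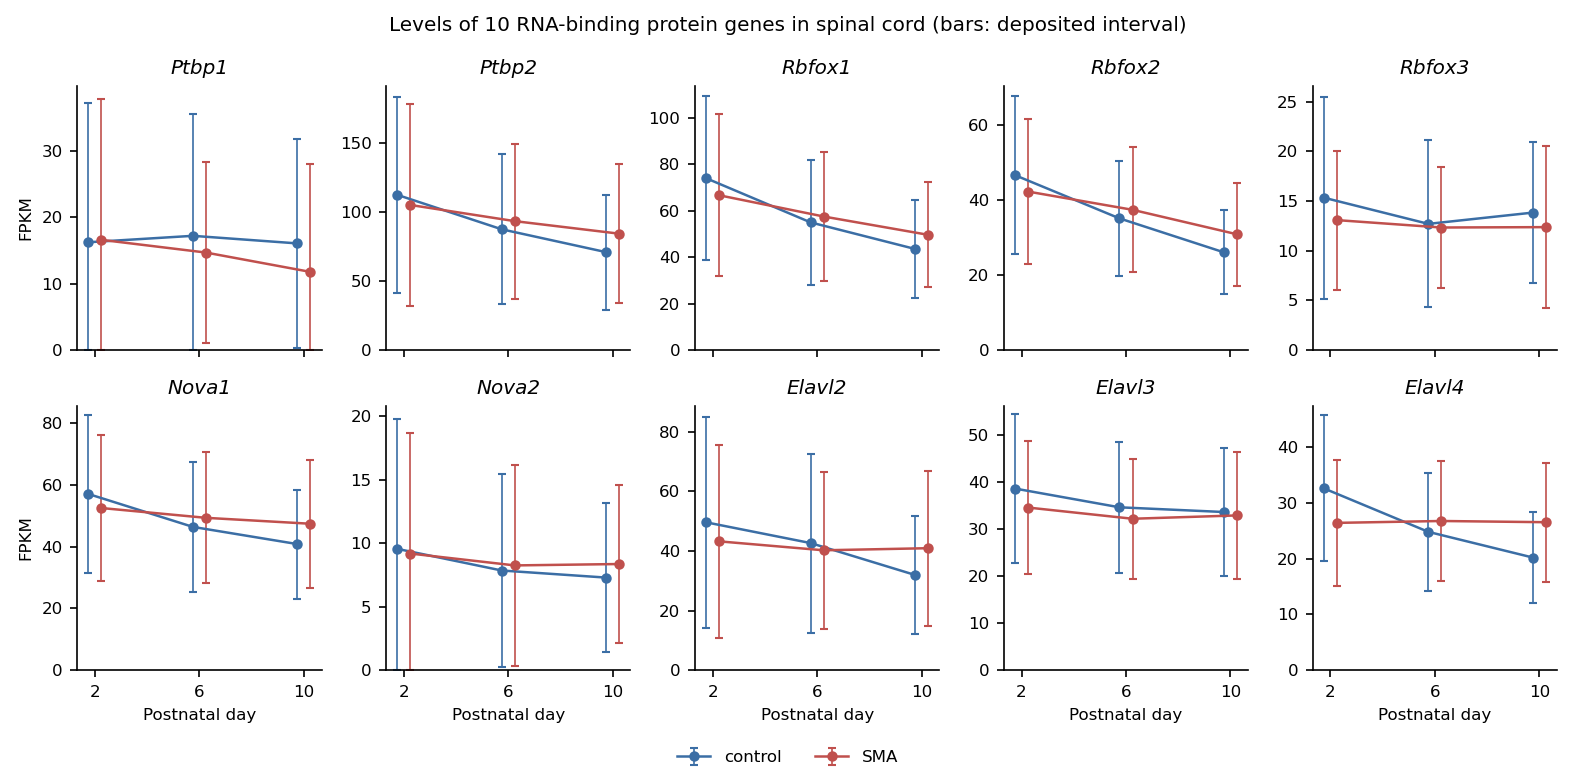
Level in FPKM (y axis) of each of the 10 genes against postnatal day (x axis) in control (blue) and SMA (red) cords, 1 combined value per group, with the authors' deposited lower and upper bounds as bars. Control levels of Rbfox2 run from 46.6 down to 26.0 while SMA levels of Elavl4 stay between 26.4 and 26.7, and the bars of both genotypes overlap throughout.

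The order of the 10 levels was the same in control and SMA at P2 and P6: Ptbp2, Rbfox1, Nova1, Elavl2, Rbfox2, Elavl3, Elavl4, Ptbp1, Rbfox3 and Nova2. At P10 Elavl3 stood above Elavl2 and Rbfox2 in control, and above Rbfox2 in SMA, where Rbfox3 also stood above Ptbp1. The intervals of every pair of neighbours in these orders overlap. The widest gap between neighbours in units of its SE was 1.94, for Elavl4 over Rbfox3 in the group labelled SMA at P10. All gaps between neighbours were thus under 2 SE, and some were over 1 SE.

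**Figure D2:**
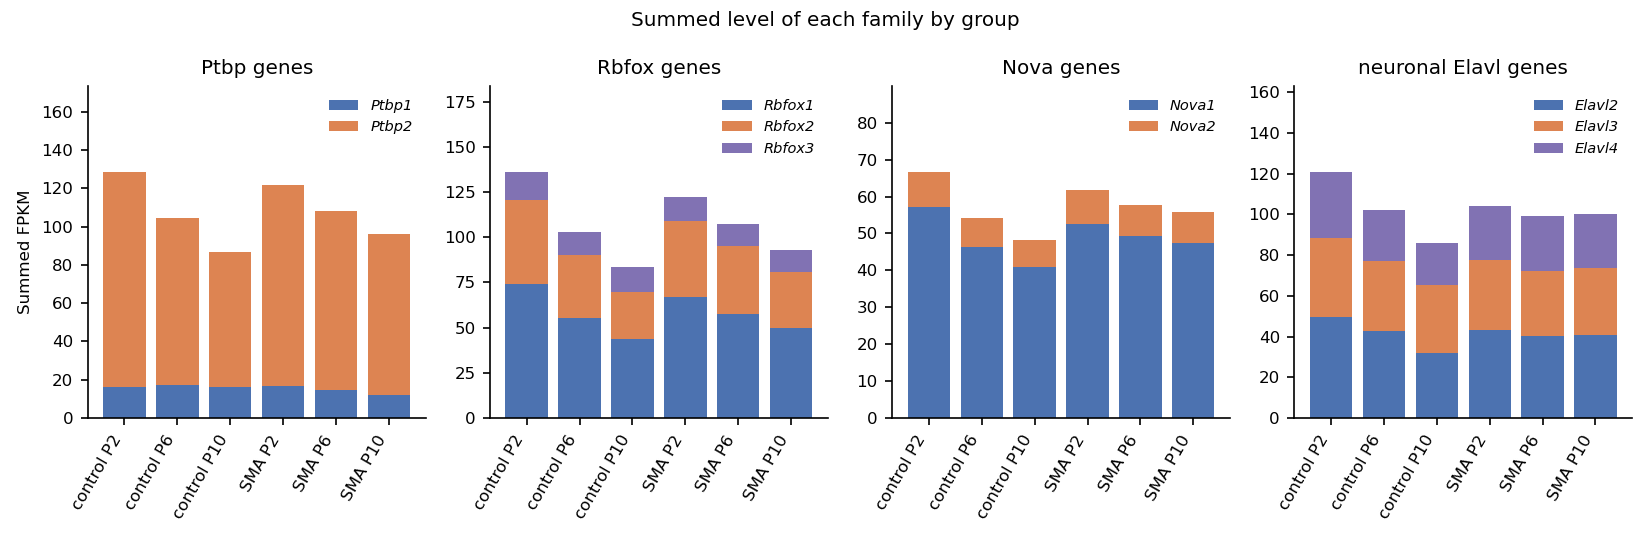
Summed FPKM (y axis) of the PTB, RBFOX, NOVA and neuronal ELAVL genes in the 6 groups (x axis), with each colour the part of 1 gene. Nova1 holds 84.8% to 85.7% of its family's level in every group, while the Rbfox3 part ranges from 10.7% to 16.6%. The parts are drawn from the levels alone, with no error shown.

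With age, every member had a lower level at P10 than at P2 in control cords, although none passed the test. The log2 ratios ran from -0.02 ± 1.19 (Ptbp1) to -0.84 ± 0.46 (Rbfox2) with a median of -0.56, against 0.02 over all genes tested. The test called 0 members, at a background of 0.631% of genes called (126 of 19956), and 0 at an unadjusted p under 0.05 against 701 of all genes. From P2 to P6, 9 of the 10 were lower (median -0.29, Ptbp1 0.08 ± 1.23), with 0 called at a background of 0.112%. A value lower at each later age in control was seen in 8 of the 10, all but Ptbp1 and Rbfox3, against 26.4% of 16052 loci. The directions of 2 members are not set: the Ptbp1 ratio from P2 to P10 was 0.00133 after rescaling by median ratios, and that of Rbfox3 was -0.15 ± 0.62 from FPKM and 0.07 ± 0.42 from estimated counts.

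SMA cords had smaller differences with age. From P2 to P10 9 of the 10 members were lower, with a median of -0.14 against 0.05 over all genes, and 0 were called (background 0.0602%). Ptbp1 had the lowest ratio (-0.50 ± 1.39), followed by Rbfox2 (-0.45 ± 0.47) and Rbfox1 (-0.43 ± 0.51), while Elavl4 had 0.01 ± 0.43. From P2 to P6 9 were lower (median -0.13), with 0 called (background 0.0312%). A value lower at each later age was seen in 5 of the 10, against 19.6% of loci.

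The difference between those courses was tested directly. The ratio of P10 to P2 in SMA minus that in control was above 0 for 9 of the 10, all but Ptbp1, with a median of 0.34 against 0.05 over all genes. It was 0.70 ± 0.60 for Elavl4 (adjusted p = 1.00, z test), 0.56 ± 1.00 for Elavl2, 0.39 ± 0.66 for Rbfox2 and -0.48 ± 1.83 for Ptbp1. The test called 0 members, at a background of 0.0574%. Of the 7972 loci that were lower at P10 in control, 81.8% had a less negative ratio in SMA, so 9 of 10 is near the share among all such loci. The age comparisons and this difference share their groups.

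**Figure D3:**
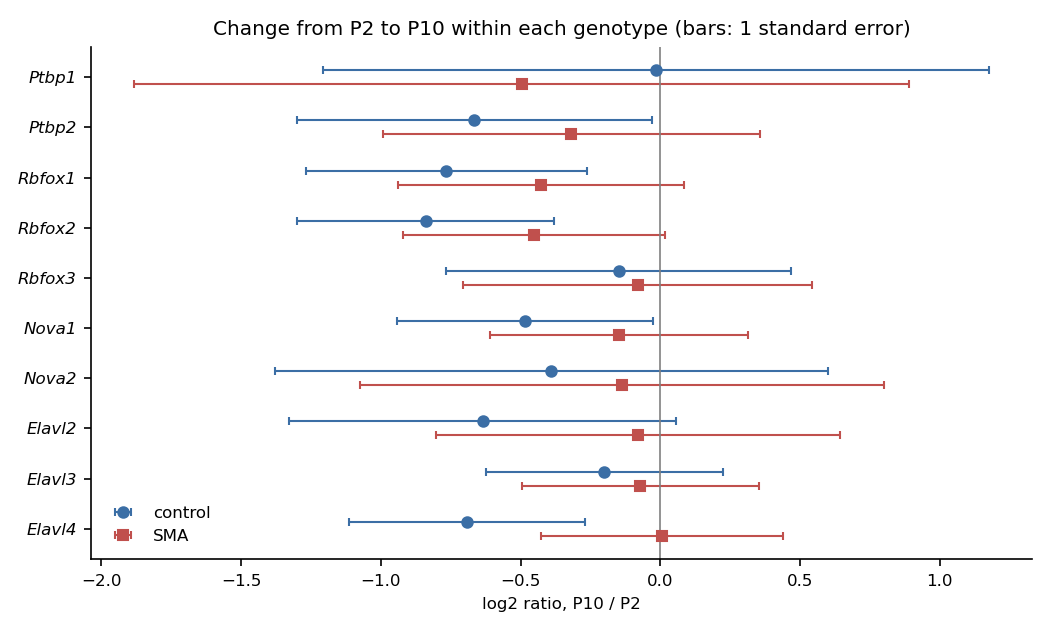
Log2 ratio of P10 to P2 (x axis) for the 10 genes (y axis) in control (blue circles) and SMA (red squares), with 1 standard error as bars. Control ratios run from -0.84 to -0.02 and SMA ratios from -0.50 to 0.01, and the bars of the 2 genotypes overlap for every gene, with the points farthest apart for Elavl4 (-0.69 ± 0.42 and 0.01 ± 0.43).

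A fit over all 6 groups with limma, with genotype and age as terms, takes the genotypes as the replicates of an age. With only 2 residual degrees of freedom it does not measure the spread between animals. In it P10 was lower than P2 by -0.63 ± 0.13 for Rbfox2, -0.59 ± 0.12 for Rbfox1 and -0.49 ± 0.12 for Ptbp2 on the log2(FPKM + 1) scale (adjusted p = 0.282 for each). Nova1 had -0.31 ± 0.12 (adjusted p = 0.324), and the others lay between -0.35 ± 0.16 (Elavl2) and -0.11 ± 0.11 (Rbfox3). The fit called 0 members at a background of 0.0137%. At an unadjusted p under 0.05 it had these 4 of the 10, against 15.4% of all genes.

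SMA was compared with control at each age. At P2 9 of the 10 members were lower in SMA, with a median log2 ratio of -0.15 against -0.01 over all genes. The lowest was Elavl4 (-0.30 ± 0.43) and the highest Ptbp1 (0.03 ± 1.34), and 0 were called at a background of 0.126%. At P6 4 were lower and 6 higher, from -0.23 ± 1.04 (Ptbp1) to 0.11 ± 0.43 (Elavl4), and 0 were called at a background of 0.0458%. These directions depend on scaling: rescaling by median ratios moved the median of all genes from 0.07 to -0.05 and put all 10 members below 0. At P10 3 were lower (Ptbp1, Rbfox3 and Elavl3) and 7 higher, with a median of 0.21 against 0.04 over all genes, and 0 were called at a background of 0.0397%. The members that were lower in SMA at P2 and higher at P10 were Ptbp2, Rbfox1, Rbfox2, Nova1, Nova2, Elavl2 and Elavl4.

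**Figure D4:**
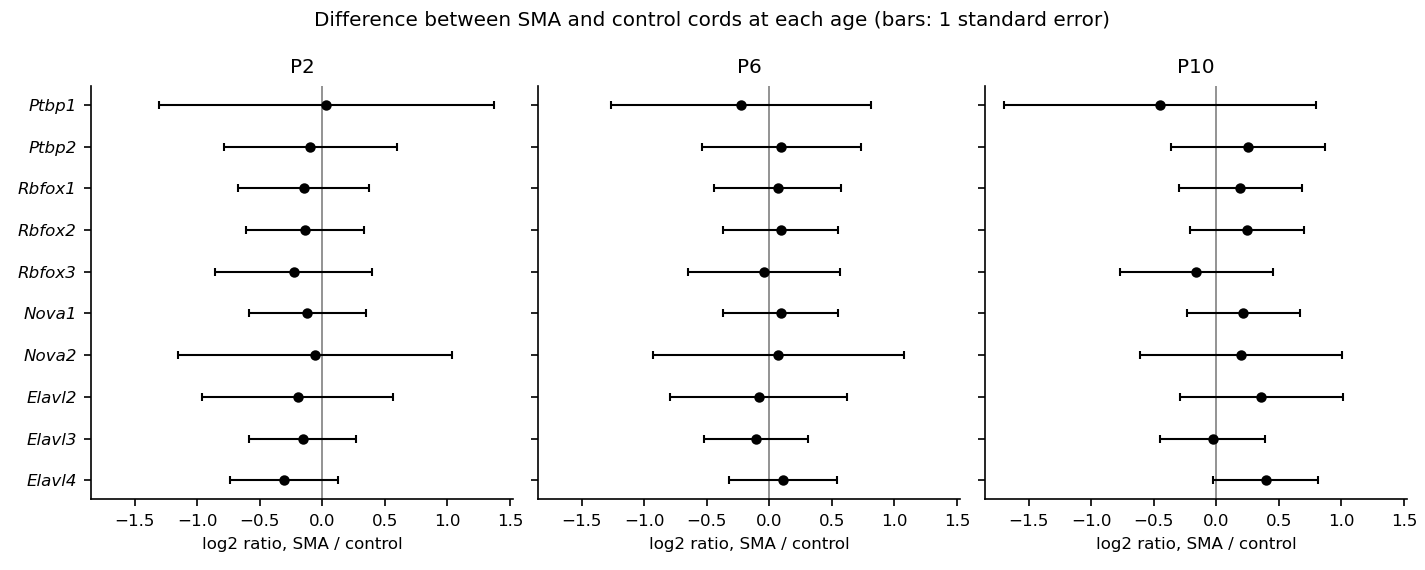
Log2 ratio of SMA to control (x axis) for the 10 genes (y axis) at P2, P6 and P10, with 1 standard error as bars. The bars cross 0 for every gene at every age, and the points at P10 run from -0.45 (Ptbp1) to 0.39 (Elavl4).

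Across ages the limma genotype term ran from -0.20 ± 0.12 for Ptbp1 (adjusted p = 0.999) to 0.08 ± 0.10 for Ptbp2. It called 0 members at a background of 0.00455% (1 of 21960 genes), and 0 at an unadjusted p under 0.05 against 451 of all genes. Ptbp1 and Rbfox3 (-0.13 ± 0.09) had the lowest values of the 10, and 5.94% of all genes had a lower value than Ptbp1. The 3 SMA values of a gene lay inside the range of its 3 control values for 7 of the 10, all but Ptbp1, Rbfox3 and Elavl3, against 37.8% of loci. The deposited intervals of 2 groups did not overlap for 0 members in each comparison of the genotypes, against 0.23% of genes at P2, 0.117% at P6 and 0.0794% at P10. The same count was 0 between ages, against 0.275% of genes in control P6 and 1.36% in control P10 against P2, and 0.119% and 0.11% for the same ages in SMA.

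Whole cords mix neurons with glia, and in such bulk samples fewer cells of a type and less RNA per cell cannot be told apart. The summed level of the 10 members was 452, 364 and 304 FPKM in control and 410, 372 and 345 in SMA. The summed level of 5 general neuron markers (Tubb3, Snap25, Syt1, Stmn2 and Map2) was 818, 693 and 603 in control and 722, 745 and 686 in SMA. Both sums were highest in control at P2 and lowest in control at P10. Among the 5 markers Snap25, a synaptic vesicle fusion gene, went the other way, at 109 FPKM in control at P2 and 165 at P10. The members' sum was 55.3%, 52.5% and 50.4% of the markers' sum in control and 56.7%, 49.9% and 50.3% in SMA. Markers of immature neurons (4 of 4 measured) were 800, 535 and 318 in control and 653, 594 and 493 in SMA, with 1 of the 4 called lower at P10 than P2 in control. Most of this sum was 1 locus that joins Tubb2b with Tubb2a, at 734, 500 and 303 in control and 601, 565 and 461 in SMA. Dcx alone was 46.0, 23.5 and 9.26 in control and 35.6, 19.8 and 21.9 in SMA. The summed markers of spinal cord neuron classes (6 of 6) stayed between 153 and 172, and those of dividing cells (5 of 5) between 36.5 and 42.4. Single spinal cord neuron markers went both ways in control from P2 to P10, with 4 higher and 2 lower. Chat was 1.31 and 3.67 and Slc17a6 62.9 and 45.8, while in SMA at P10 they were 2.32 and 56.8. The values of Slc6a5 and Hoxc10 came from loci joined with other genes.

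The summed mature oligodendrocyte and astrocyte markers were lowest in control at P2 and highest in control at P10, the groups where the members' sum was highest and lowest. Of the 8 mature oligodendrocyte markers, 7 were called higher at P10 than at P2 in control. Astrocyte markers (4 of 5 measured) were 200, 332 and 588 in control and 414, 371 and 432 in SMA, although the astrocyte marker Slc1a3 alone was 61.3 in control at P2 and 43.5 at P10. Microglia markers (4 of 4) were 29.4, 33.7 and 36.8 in control and 39.3, 39.3 and 37.2 in SMA, highest in SMA cords. No marker of these lists was at 0 in all groups. The part of these markers' cell types in the members' ratios was not tested.

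**Figure D5:**
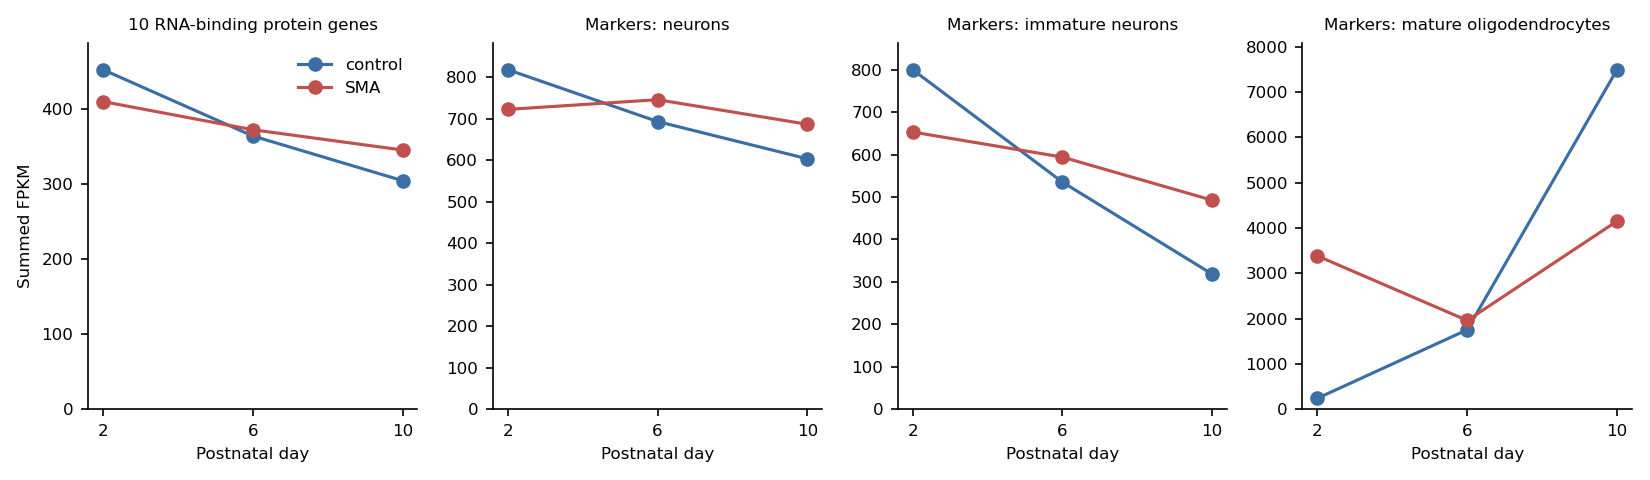
Summed FPKM (y axes, each from 0) of the 10 genes and of markers of neurons, immature neurons and mature oligodendrocytes against postnatal day (x axis) in control (blue) and SMA (red). Most of the immature neuron sum is 1 locus that joins Tubb2b with Tubb2a. In control the members run from 452 to 304 and the oligodendrocyte markers from 239 to 7496, and in SMA the latter start at 3382.

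The other regulators of splicing and stability were read in the same comparison, control P10 against P2, with 0 called in any list. The family relatives outside the 10 are the broadly expressed genes Ptbp3 (10.7 to 8.84 FPKM, -0.27 ± 0.80) and Elavl1, the gene of HuR (17.3 to 18.9 FPKM, 0.12 ± 0.57). Of 15 neuronal and muscle splicing regulators 14 could be tested, 10 of them lower, with a median of -0.53. The 2 with the greatest ratios went the other way: Mbnl2, a muscleblind splicing factor, was 10.9 FPKM at P2 and 32.0 at P10 (1.55 ± 0.45, adjusted p = 0.0761, z test), and Qk, which encodes the glial splicing factor quaking, was 98.3 and 265 (1.43 ± 0.63). In SMA these were 20.3 and 23.6 for Mbnl2 and 169 and 211 for Qk.

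General factors were closer to the median of all genes. Of 12 hnRNP genes 7 were lower (median -0.06), with Hnrnpc at 0.48 ± 0.41 and Hnrnpa1 at -0.44 ± 0.43. Of 12 SR protein genes, which encode exon-recognising activators, 9 were lower (median -0.14), with Srsf9 at 0.44 and Srsf1 at -0.39. Of 18 regulators of mRNA stability and translation 17 could be tested and 10 were higher (median 0.12), led by the cytoplasmic polyadenylation factors Cpeb1 (1.15 ± 0.76) and Cpeb3 (0.63 ± 0.67).

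Among 7 transcripts reported as targets of these proteins 4 were higher and 3 lower (median 0.04), and 0 were called. Mapt, which encodes the microtubule protein tau, was 142, 86.7 and 47.8 FPKM in control and 109, 92.7 and 79.4 in SMA (control P10 against P2 -1.58 ± 0.59, adjusted p = 0.464, z test). Gap43, a growth cone gene whose mRNA HuD binds, was 244, 149 and 83.3 in control and 173, 178 and 161 in SMA (-1.55 ± 0.48, adjusted p = 0.146). The gene levels say nothing of exon use, which these tables do not measure.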

How the data were processed

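Total RNA from whole cords was isolated with Trizol and made into stranded, ribosomal-RNA-depleted libraries, per the labels' protocols. The submitters' processing notes name, with no order given, TopHat2 2.1.1, Bowtie2 2.2.4, FastQC, Picard, Cuffdiff, Cufflinks 2.2.1 and the build GRCm38. The gene annotation release, strand setting and normalization are not given in the sources used here. The authors deposited FPKM per gene and group with lower and upper bounds, and estimated counts of fragments with a variance from the authors' model. Each value combines 3 libraries, so errors come from the authors' model and not from replicates seen here.

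The SE of a level was the distance from FPKM to the upper bound divided by 1.96. Log2 ratios were tested with a two-sided z test over genes with FPKM of at least 1 in a group compared, above 0 in each, with Benjamini-Hochberg adjustment. All 10 members passed this filter. A limma 3.58.1 fit (R 4.3.3, trended prior) used log2(FPKM + 1) with genotype and age. Alternatives were estimated counts in place of FPKM, median ratio rescaling, other filters, SEs and pseudocounts, and leaving out an age.

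Members, lists and tests were chosen with earlier results of these data known. Named genes are the members, Smn1, any called gene of the companion lists, the 2 genes per list with the greatest absolute log2 ratio of control P10 to P2 among those of at least 5 FPKM in either group, and the 3 genes most like Ptbp1 and Rbfox3. Gene positions are from GENCODE M21 and promoter windows from RefSeq.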

Additional observations from a re-analysis of the deposited data

How the results depend on the processing

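No paired analysis was possible because the tables hold 1 combined value per group, so replicate numbers carry no values of their own, and no library could be left out. No member was called under any alternative, the smallest adjusted p being 0.217. Of 600 member values under alternatives, 576 kept their direction and 24 reversed, none of them called. Alternatives that changed only the filter, the SE or the prior variance left each ratio as it was, so those could not reverse. Adding 1 to FPKM cannot reverse a ratio between groups either. The count of 576 is thus no measure of how stable the directions are. The reversals came with estimated counts (9), with median ratio rescaling (9) and without the P10 groups (6). With estimated counts these were Ptbp1 in SMA against control at P2 (-0.00264), Rbfox1 (-0.0327) and Nova2 (-0.11) at P6, Ptbp1 in control P6 against P2 (-0.0257), Rbfox3 in control P10 against P2 (0.0698), Elavl4 in SMA P6 against P2 (-0.0753), Rbfox3 (0.0205) and Elavl4 (-0.20) in SMA P10 against P2, and Rbfox3 in the difference between genotypes (-0.0493). With median ratio rescaling they were, in SMA against control at P6, Ptbp2 (-0.0171), Rbfox1 (-0.0464), Rbfox2 (-0.0204), Nova1 (-0.0229), Nova2 (-0.0395) and Elavl4 (-0.00224), Ptbp1 in control P10 against P2 (0.00133), and Rbfox1 (-0.0195) and Elavl2 (-0.0290) in the limma genotype term. Without the P10 groups that term was -0.00157 for Ptbp2, -0.0424 for Rbfox1, -0.0252 for Rbfox2, -0.0155 for Nova1, -0.14 for Elavl2 and -0.0943 for Elavl4. The cause of these reversals was not tested.

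Counts of called genes over the whole table moved more. Control P10 against P2 called 126 genes, 216 with estimated counts and 367 with the SE taken from the log2 ratio of the bound. SMA against control called 24, 9 and 8 at P2, P6 and P10, and 60, 17 and 13 with that SE, and with estimated counts 20 at P2 and 0 at both P6 and P10. The other age comparisons by z test called, as reported, with estimated counts and with that SE, 22, 12 and 39 (control P6 against P2), 6, 0 and 20 (SMA P6 against P2), 12, 2 and 18 (SMA P10 against P2), and 12, 23 and 56 (the difference between genotypes, 20 with FPKM of at least 5). The limma genotype term called 1 gene, 12, 15 and 6 without the P2, P6 and P10 groups, and 0 with FPKM of at least 5, with median ratio rescaling or with no trend in the prior variance, and its age term 3, and 1 to 5 under alternatives. Leaving out the P2 groups put 1 member (Ptbp1, -0.32 ± 0.13) at an unadjusted p under 0.05 in the genotype term. Over all genes 624 of 21426 (2.91%) were under it in that setting, which includes the group labelled SMA at P10.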
